A study of Homo sapiens with 6 samples.

Results

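The genes described here are 39 that serve protein folding in the endoplasmic reticulum (ER), the disposal of misfolded ER proteins and the unfolded protein response. They were chosen by symbol from a table of 57773 genes, and each symbol had 1 row. The table comes from Hep3B, an established human line of hepatocellular carcinoma, in which SMARCA4 was targeted by an siRNA (si-SMARCA4, 3 libraries) or a control siRNA was used (si-Cont, 3 libraries). SMARCA4 (BRG1) is a motor subunit of SWI/SNF, the chromatin remodeller, and the comparison asks which transcripts differ when it is depleted. All 6 libraries come from total RNA of this 1 line, which was grown in serum-supplemented medium with antibiotics. The siRNA sequences and the time between transfection and harvest were not given in the sources used here, and no group is recorded to have received an agent known to disturb the ER.

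Secretory and membrane proteins enter the ER through the SEC61 channel, fold there with the help of chaperones, acquire disulfide bonds and N-linked glycans, and leave in COPII vesicles. Proteins that fail to fold are recognised by lectins such as the EDEM proteins, moved back to the cytosol through a channel built around the ubiquitin ligase SYVN1 (HRD1), and destroyed by the proteasome. The unfolded protein response is started by the ER membrane sensors ERN1 (IRE1), EIF2AK3 (PERK) and ATF6. ERN1 splices XBP1 mRNA so that it encodes an active transcription factor, EIF2AK3 slows translation and raises ATF4, and ATF6 is cut to release a transcription factor that binds chaperone promoters. Hepatocytes, which secrete most plasma proteins, have a large ER and rely on this machinery.

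The response was split within the module. The chaperone HSPA5, its co-chaperones DNAJB9 and DNAJC3, the oxidase ERO1L and the degradation factors HERPUD1, DERL2 and DERL1 rose in si-SMARCA4, while the disulfide isomerase P4HB, the transcription factor XBP1, the channel subunits SEC61A1 and SEC61B and the folding checkpoint enzyme UGGT1 fell. Of the 39 genes, 37 passed a filter at a mean of 1 FPKM (fragments scaled by gene length and library depth) over the 6 libraries, and all 37 also lay at or above 1 FPKM in each group's mean. On log2(FPKM + 1), limma called 25 of these 37 genes at an adjusted p of 0.05 (67.6%), against 56.0% of all 11123 genes tested. Calls in the higher direction numbered 20 (54.1%, against 22.4% of all genes) and calls in the lower direction 5 (13.5%, against 33.6% of all genes). The 3 values of a group lay wholly above or below those of the other group for 27 of the 37 genes (73.0%), against 62.3% of all genes. The median log2 fold change of the 37 was 0.15, and that of all genes tested was -0.04. Under median-ratio scaling, which set the median of all genes to 0.00, the calls among these genes were 23 higher and 5 lower, while over all genes the shares became 29.2% higher and 29.9% lower. The direction of each of the 25 called genes was the same in every scaling run. The study's design carries 3 libraries a group, and the labels do not say whether they were separate cultures, so the p-values speak for library-to-library spread and no more. In bulk RNA, fewer cells that express a gene and less of its RNA per cell cannot be told apart.

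SMARCA4 itself stood at 15.7, 19.5 and 16.6 FPKM in si-Cont and at 3.80, 3.78 and 4.01 FPKM in si-SMARCA4, or 22.3% of the control level. Reads over genes ranged from 19084308 to 22719014. A second principal component, with 8.58% of the variance, placed si-Cont replicate 2 at -11.0 and the other 5 libraries between -1.83 and 5.70, so results that rest on that library are also given without it. Hepatocyte and hepatoma markers were present, with ALB at 2269 and 1425 FPKM in si-Cont and si-SMARCA4. The 10 markers of blood, endothelial and stromal cells summed to between 0.912 and 1.11 FPKM in every library, with MS4A1, CDH5 and VWF at 0. The 10 hepatocyte and hepatoma markers summed to 3317 to 3712 FPKM under the control siRNA and to 2402 to 2537 FPKM under si-SMARCA4, a sum that is mostly ALB. Of the 10, 6 were called lower, TTR, SERPINA1 and FGB were called higher (log2 fold changes 0.59, 0.33 and 0.27), and TF did not pass. Their part in the ER results was not tested.

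**Figure D1:**
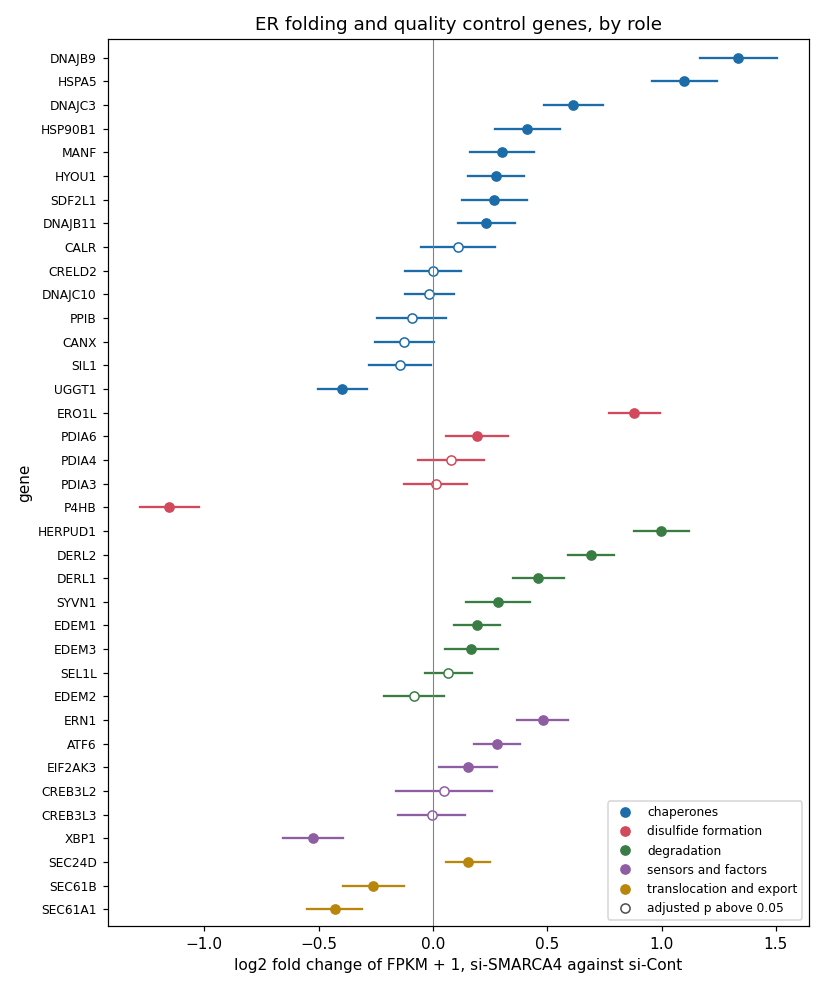
Log2 fold change of FPKM + 1 (x axis, si-SMARCA4 against si-Cont) for the 37 genes tested (y axis), coloured by role, with bars for the 95% interval from limma and open circles for an adjusted p above 0.05. DNAJB9 (1.33) and P4HB (-1.15) lie at the extremes, and 20 filled circles lie right and 5 left of 0.

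The chaperones were led by the HSP70 system. Of 15 genes in this role, 8 rose, 1 fell and 6 did not pass the threshold, with a median log2 fold change of 0.23. Of all genes tested, 22.4% were called higher and 33.6% lower, with a median of -0.04. The counts by role here and below stand against these shares and are small. HSPA5 (BiP, GRP78; ENSG00000044574), the ER HSP70 that binds unfolded chains and holds the sensors inactive, stood at 84.9, 95.1 and 85.2 FPKM in si-Cont. Its si-SMARCA4 values were 187, 198 and 186 FPKM. The groups were far apart, at 88.4 ± 5.84 against 190.4 ± 6.24 FPKM (SD, n = 3 each), a ratio of 2.15 (limma log2 fold change 1.10, SE 0.06, adjusted p = 2.96e-07). Reads behind these values numbered 10472 to 25127 per library, so counting error is small beside the difference. Among all genes tested, the HSPA5 change stood at percentile 99.6.

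J-domain proteins, which hand clients to HSPA5 and trigger its ATPase, did not move alike. DNAJB9 (ERdj4; ENSG00000128590), which also keeps ERN1 in check, stood at 11.0, 8.75 and 8.95 FPKM in si-Cont and at 25.6, 26.6 and 24.4 FPKM in si-SMARCA4. It had the largest rise among the 37 genes, a ratio of 2.67 (limma log2 fold change 1.33, SE 0.08, adjusted p = 2.56e-07). Up to 183 of its exon bases also belong to THAP5 and 99 to PNPLA8 in the GENCODE annotation, on the opposite strand, and those genes stood at 4.93 and 6.60 FPKM and at 4.01 and 5.43 FPKM in si-Cont and si-SMARCA4. These bases are 6.45% and 3.49% of the DNAJB9 exons. DNAJC3 (P58IPK), which also inhibits EIF2AK3, rose from 20.8, 18.4 and 19.2 FPKM to 31.6, 30.3 and 28.9 FPKM (limma log2 fold change 0.61, SE 0.06, adjusted p = 9.98e-06). DNAJB11 (ERdj3), which binds unfolded substrates directly, rose less, from 24.4 ± 1.57 to 28.9 ± 0.541 FPKM (SD, n = 3; log2 fold change 0.23, limma adjusted p = 0.00482). DNAJC10 (ERdj5), a reductase that prepares clients for degradation, stood at 11.7 ± 0.498 and 11.6 ± 0.16 FPKM, and the 95% interval of its log2 fold change ran from -0.12 to 0.09.

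HSP90B1 (GRP94), the ER HSP90, was the most abundant of the risers, at 213, 191 and 209 FPKM in si-Cont and 278, 273 and 266 FPKM in si-SMARCA4. Its groups did not overlap, and its ratio of 1.33 (limma log2 fold change 0.41, SE 0.06, adjusted p = 0.000301) was lower than that of HSPA5. Within each library HSPA5 stood at 0.398, 0.497 and 0.407 times HSP90B1 in si-Cont and at 0.674, 0.723 and 0.701 times in si-SMARCA4. The nucleotide exchange factors of HSPA5 differed. HYOU1 (GRP170) rose from 27.6 ± 1.58 to 33.6 ± 0.679 FPKM (SD, n = 3; log2 fold change 0.28, limma adjusted p = 0.00152). SIL1 stood at 4.96, 4.63 and 5.37 FPKM and at 4.72, 4.06 and 4.45 FPKM, with groups that overlapped (limma log2 fold change -0.15, adjusted p = 0.0643). With replicate number as a block the adjusted p of SIL1 was 0.0247 and without si-Cont replicate 2 or si-SMARCA4 replicate 1 it was 0.0163 or 0.0445. SDF2L1, a partner of ER J-domain proteins, rose from 18.5 ± 1.16 to 22.5 ± 1.56 FPKM (limma log2 fold change 0.27, adjusted p = 0.00442). MANF, a small secreted protein induced by ER stress, rose from 9.32 ± 0.87 to 11.7 ± 0.344 FPKM (limma log2 fold change 0.30, adjusted p = 0.00206).

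Of the lectin chaperones and their checkpoint enzyme, UGGT1 fell, and CALR and CANX did not pass the threshold. Calnexin and calreticulin hold glycoproteins that carry a trimmed glucose, and UGGT1 puts that glucose back on chains that are not yet folded. CALR stood at 253, 220 and 258 FPKM in si-Cont and at 268, 258 and 261 FPKM in si-SMARCA4, with overlapping groups (limma log2 fold change 0.11, 95% interval -0.05 to 0.27, adjusted p = 0.227). CALR was called higher under 4 alternatives, namely median-ratio, upper-quartile and quantile scaling and voom on recovered reads, with log2 fold changes from 0.16 to 0.25 (adjusted p from 0.0136 to 5.52e-05). CANX stood at 132, 120 and 128 FPKM against 118, 113 and 116 FPKM, where every si-SMARCA4 value was below every si-Cont value but the difference missed the threshold (limma log2 fold change -0.12, adjusted p = 0.0939). With replicate number as a block its adjusted p was 0.0358, without si-Cont replicate 2 it was 0.00238, and under quantile normalization its direction turned to 0.07. UGGT1 fell from 22.9, 22.3 and 23.8 FPKM to 17.3, 17.1 and 17.3 FPKM, 75.0% of the control level (limma log2 fold change -0.40, SE 0.05, adjusted p = 5.16e-05). CRELD2, an isomerase-like protein known as an ER stress target in mouse, stood at 5.46 ± 0.438 and 5.45 ± 0.156 FPKM, with a 95% interval of -0.12 to 0.12. The prolyl isomerase PPIB (cyclophilin B) stood at 163 ± 12.7 and 153 ± 3.92 FPKM (limma log2 fold change -0.09, adjusted p = 0.276). Its value without si-Cont replicate 2 was -0.15 (adjusted p = 0.00663), and under quantile normalization its direction turned to 0.10 (adjusted p = 0.0285).

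**Figure D2:**
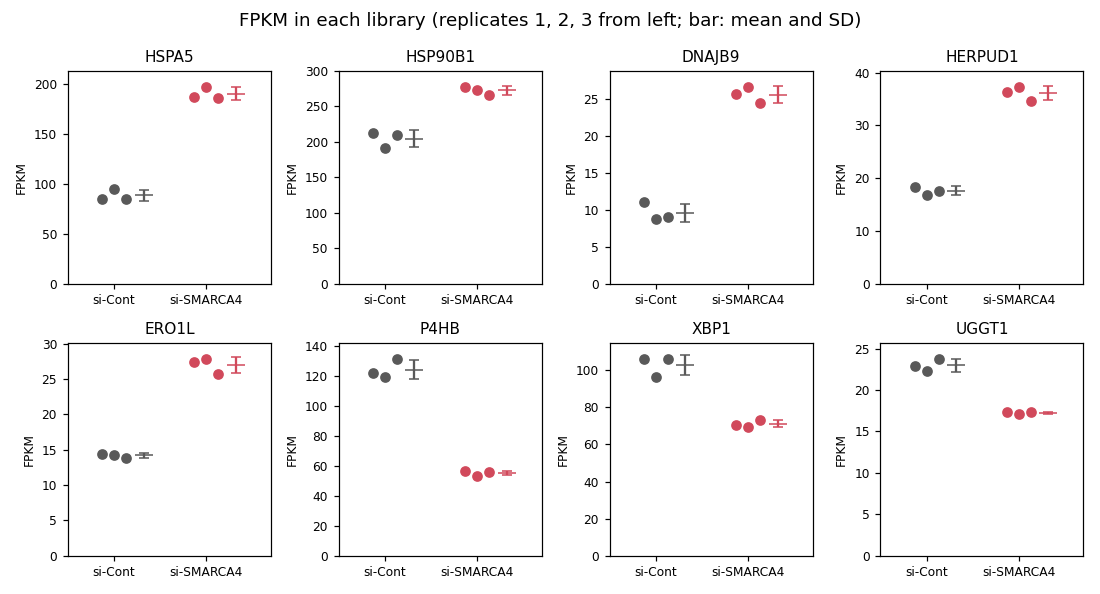
FPKM (y axis, from 0) of 8 genes in each library, with si-Cont in grey and si-SMARCA4 in red and the mean and SD of 3 libraries beside the points. In every panel the groups do not overlap: HSPA5 runs from 84.9 to 95.1 FPKM in si-Cont and from 186 to 198 FPKM in si-SMARCA4, and P4HB from 119 to 132 and from 53.6 to 56.5 FPKM. The 8 genes were taken from the called ones, and the groups also did not overlap for 62.3% of all genes tested.

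Genes of disulfide formation held the strongest contrast of the module. Of 6 genes, 5 were tested, of which 2 rose, 1 fell and 2 did not pass. Of all genes tested, 22.4% were called higher and 33.6% lower, and 5 genes are few to set against these shares. P4HB (PDI; ENSG00000185624), the founding protein disulfide isomerase, which is also a subunit of prolyl 4-hydroxylase and of the microsomal triglyceride transfer complex of hepatocytes, stood at 122, 119 and 132 FPKM in si-Cont. In si-SMARCA4 it stood at 56.5, 53.6 and 55.8 FPKM. That is 44.5% of the control level (limma log2 fold change -1.15, SE 0.06, adjusted p = 1.05e-07), the largest fall among the 37 genes and at percentile 0.432 of all genes tested. The related isomerase PDIA3 (ERp57), partner of calnexin and calreticulin, stood at 116, 105 and 119 FPKM and at 115, 112 and 115 FPKM. These groups overlapped, and the 95% interval of the log2 fold change of PDIA3 ran from -0.13 to 0.15. Under quantile normalization PDIA3 was called higher (limma log2 fold change 0.19, adjusted p = 0.000124). PDIA3 was at 0.948, 0.879 and 0.903 times P4HB in si-Cont and at 2.03, 2.09 and 2.06 times P4HB in si-SMARCA4. PDIA4 (ERp72) stood at 98.4 ± 7.45 and 104 ± 2.31 FPKM (limma log2 fold change 0.08, adjusted p = 0.333). The same 4 alternatives called PDIA4 higher, with log2 fold changes from 0.13 to 0.26 (adjusted p from 0.0196 to 4.83e-05). PDIA6 (P5) rose from 49.9 ± 3.34 to 57.2 ± 1.71 FPKM (limma log2 fold change 0.19, adjusted p = 0.0195), a call that held in 16 of 20 alternatives. Those that lost it include leaving out si-SMARCA4 replicate 1 (adjusted p = 0.0923) or replicate 3 (adjusted p = 0.056).

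ERO1L (ERO1 alpha; ENSG00000197930), the oxidase that recharges protein disulfide isomerases and makes hydrogen peroxide in doing so, moved opposite to P4HB. It rose from 14.4, 14.3 and 13.9 FPKM to 27.4, 27.9 and 25.8 FPKM (limma log2 fold change 0.88, SE 0.05, adjusted p = 2.54e-07). The level of ERO1L relative to P4HB, per length, was 0.118, 0.120 and 0.105 in si-Cont and 0.484, 0.519 and 0.461 in si-SMARCA4. ERO1LB (ERO1 beta) lay under the filter, at 0.576, 0.664 and 0.682 FPKM in si-Cont and 1.16, 1.35 and 1.23 FPKM in si-SMARCA4, with 108 to 249 reads per library. Its groups did not overlap, and with a filter at a mean of 0.1 FPKM its log2 fold change was 0.45 (limma adjusted p = 0.000223).

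**Figure D3:**
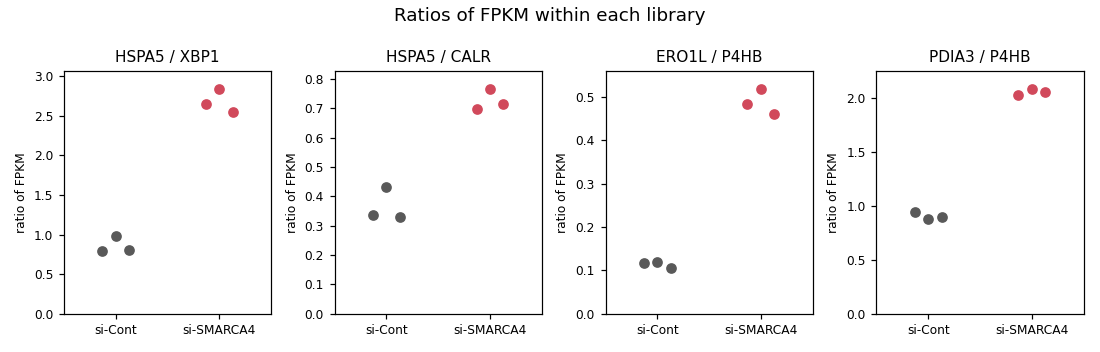
Ratio of the FPKM of 2 genes within each library (y axis, from 0), with si-Cont in grey and si-SMARCA4 in red; these pairs were chosen after their values were seen. HSPA5 over XBP1 runs from 0.800 to 0.987 in si-Cont and from 2.55 to 2.84 in si-SMARCA4, and ERO1L over P4HB from 0.105 to 0.120 and from 0.461 to 0.519.

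Calls among the degradation genes were all in the higher direction. Of 9 genes, 8 were tested, of which 6 rose (against 22.4% of all genes) and 2 did not pass. Their median log2 fold change was 0.24. In the lower direction (33.6% of all genes) limma called 0, also at an unadjusted p under 0.05. Voom on recovered reads called 0 lower as well. HERPUD1 (HERP; ENSG00000051108), which organises the SYVN1 complex, stood at 18.4, 16.7 and 17.6 FPKM in si-Cont and at 36.3, 37.4 and 34.6 FPKM in si-SMARCA4. Its ratio was 2.05 (limma log2 fold change 1.00, SE 0.06, adjusted p = 1.88e-07). The derlins are rhomboid-like membrane proteins of the same channel. DERL2 rose from 6.33, 5.88 and 5.99 FPKM to 10.5, 10.4 and 10.3 FPKM (limma log2 fold change 0.69, SE 0.05, adjusted p = 7.34e-07). Of its exon bases 301 (4.71%) also belong to MIS12 on the opposite strand, at 9.36 and 10.7 FPKM in si-Cont and si-SMARCA4. DERL1 rose from 7.17, 6.42 and 6.90 FPKM to 9.97, 9.72 and 9.63 FPKM (limma log2 fold change 0.46, SE 0.05, adjusted p = 2.42e-05). DERL3, the third derlin, was listed at group means of 0.157 and 0.139 FPKM, or 9 to 27 reads, and 77.0% of its exon bases also belong to SMARCB1 on the opposite strand, so the source of those few reads is uncertain.

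SYVN1, the ubiquitin ligase of the channel, was called higher and its adaptor SEL1L was not called. The level of SYVN1 rose from 2.34, 2.99 and 2.60 FPKM to 3.34, 3.52 and 3.42 FPKM (limma log2 fold change 0.29, adjusted p = 0.00313), although 398 of the SYVN1 exon bases also belong to FAU, a gene at 101 and 84.2 FPKM on the same strand. MRPL49, on the opposite strand at 16.1 and 16.5 FPKM in si-Cont and si-SMARCA4, shares 356 of the SYVN1 exon bases. SEL1L, the adaptor that stabilises SYVN1, stood at 28.0, 27.2 and 27.4 FPKM and at 28.6, 29.1 and 29.1 FPKM. Its groups did not overlap, yet the difference missed the threshold (limma log2 fold change 0.07, adjusted p = 0.242). SEL1L was called higher under the 4 alternatives that also called CALR, with log2 fold changes from 0.12 to 0.19 (adjusted p from 0.0165 to 0.00126). The EDEM mannosidases mark glycoproteins for disposal. EDEM1 rose from 8.05 ± 0.164 to 9.34 ± 0.253 FPKM (limma log2 fold change 0.19, adjusted p = 0.00423) and EDEM3 from 13.8 ± 0.681 to 15.6 ± 0.495 FPKM (0.17, adjusted p = 0.0185). EDEM3 was no longer called without si-SMARCA4 replicate 1 (adjusted p = 0.0875) or replicate 3 (adjusted p = 0.064). EDEM2 stood at 8.67 ± 0.739 and 8.11 ± 0.271 FPKM (-0.08, adjusted p = 0.261), and without si-Cont replicate 2 its adjusted p was 0.0213.

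The 3 classical sensors rose, by ratios of 1.56 for ERN1, 1.24 for ATF6 and 1.13 for EIF2AK3, and XBP1 fell. ERN1, the IRE1 kinase and RNase, stood at 2.23, 2.46 and 2.32 FPKM in si-Cont and at 3.51, 3.78 and 3.67 FPKM in si-SMARCA4, with no overlap (limma log2 fold change 0.48, SE 0.05, adjusted p = 1.8e-05). At this low level the pseudocount lowers the log2 fold change, which was 0.62 with a pseudocount of 0.1 and 0.70 by voom on recovered reads. ATF6 rose from 9.24, 8.90 and 9.27 FPKM to 11.4, 11.3 and 11.2 FPKM (limma log2 fold change 0.28, adjusted p = 0.000352). EIF2AK3 was called by a narrow margin, from 7.55, 6.37 and 7.07 FPKM to 7.92, 7.76 and 7.95 FPKM (limma log2 fold change 0.15, adjusted p = 0.0415). Its call was lost when any library other than si-Cont replicate 1 was left out (adjusted p = 0.0696 to 0.106), and the log2 fold change was 0.10 without si-Cont replicate 2. Counting all 20 alternatives, the call of EIF2AK3 held in 12. XBP1 (ENSG00000100219), the substrate of ERN1, fell from 106, 96.4 and 106 FPKM to 70.5, 69.5 and 73.1 FPKM, 69.1% of the control level (limma log2 fold change -0.53, SE 0.06, adjusted p = 3.11e-05). All si-SMARCA4 values of XBP1 lay below all si-Cont values, with 6767 to 10596 reads per library. The table gives 1 value per gene, so spliced and unspliced XBP1 mRNA cannot be told apart. The DNAJB9 level, per length, was 0.104, 0.0907 and 0.0845 times that of XBP1 in si-Cont and 0.363, 0.383 and 0.333 times in si-SMARCA4.

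The related membrane-bound factors were not called. CREB3L3 (CREBH), the liver factor activated in the acute phase response, stood at 1.77, 1.55 and 1.76 FPKM and at 1.45, 1.82 and 1.78 FPKM, from 121 to 159 reads. The 95% interval of its log2 fold change ran from -0.15 to 0.14. CREB3L2, which raises the secretory capacity of cartilage cells in mouse, stood at 5.10, 7.29 and 5.33 FPKM in si-Cont and at 6.06, 6.17 and 5.99 FPKM in si-SMARCA4. Here si-Cont replicate 2 was high, and without it the log2 fold change was 0.19 (limma adjusted p = 0.00296), against 0.05 (adjusted p = 0.694) with all libraries.

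All 3 genes of entry and export were called (against 56.0% of all genes), in opposite directions. SEC61A1, the pore of the translocation channel, fell from 54.1, 50.2 and 55.2 FPKM to 38.5, 39.2 and 39.9 FPKM (limma log2 fold change -0.43, SE 0.06, adjusted p = 7.57e-05). SEC61B, a small subunit of the same channel, fell from 53.1, 46.9 and 52.8 FPKM to 42.9, 41.5 and 42.5 FPKM (limma log2 fold change -0.26, SE 0.06, adjusted p = 0.00375). SEC24D, a cargo adaptor of the COPII coat, rose from 6.79 ± 0.148 to 7.65 ± 0.071 FPKM (limma log2 fold change 0.15, adjusted p = 0.0124), and its adjusted p was 0.0524 and 0.0507 without si-SMARCA4 replicates 1 and 3. Summed FPKM by role showed the same split. Chaperones summed to 920 to 1013 FPKM in si-Cont and 1176 to 1198 FPKM in si-SMARCA4, and degradation genes to 88.5 to 93.2 and 120.0 to 122.7 FPKM. Disulfide genes summed to 376 to 422 and 352 to 363 FPKM, sensors and factors to 123 to 132 and 100.4 to 103.7 FPKM, and entry and export genes to 104 to 115 and 88.3 to 90.2 FPKM. In the sums the higher chaperone total came chiefly with HSPA5 and HSP90B1, and the lower totals with P4HB, XBP1 and SEC61A1.

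Promoters were searched because many ER genes share a known control element. The ER stress response element (ERSE) reads CCAAT, any 9 bases and then CCACG, and is bound by NF-Y over CCAAT and by ATF6 over CCACG. A related form, ERSE-II, reads ATTGG, any 1 base and then CCACG. Both strands of the RefSeq promoter windows (GRCh38.p14, 250 bases before to 50 after each start) were searched, and 35 of the 39 genes had a window; PDIA3, SEC24D, DERL1 and DERL3 had none. ERSE was held by 8 of the 35 genes and by 0.0916% of all 27305 genes with a window. ERSE-II was held by 3 of the 35 genes and by 0.0696% of all genes with a window. The following stretches show each element in capitals with its flanks, read so that the element runs in the stated order. First come the ERSE of genes that rose:
HSPA5 (chr9:125241376-125241424, reads with the gene): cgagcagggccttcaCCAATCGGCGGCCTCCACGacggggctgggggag
HSP90B1 (chr12:103930201-103930249, reads with the gene): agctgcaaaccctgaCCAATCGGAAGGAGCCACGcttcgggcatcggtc
HSP90B1 (chr12:103930306-103930354, reads against the gene): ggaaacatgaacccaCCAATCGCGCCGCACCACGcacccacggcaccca
PDIA6 (chr2:10812838-10812886, reads with the gene): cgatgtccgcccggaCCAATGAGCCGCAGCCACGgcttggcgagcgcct
Next are the ERSE of genes that fell, were not called or lay under the filter:
XBP1 (chr22:28800588-28800636, reads with the gene): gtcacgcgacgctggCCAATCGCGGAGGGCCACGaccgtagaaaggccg
CALR (chr19:12938369-12938417, reads against the gene): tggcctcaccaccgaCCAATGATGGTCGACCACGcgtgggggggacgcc
CANX (chr5:179698763-179698811, reads with the gene): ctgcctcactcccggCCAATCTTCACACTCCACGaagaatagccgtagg
CRELD2 (chr22:49918539-49918587, reads against the gene): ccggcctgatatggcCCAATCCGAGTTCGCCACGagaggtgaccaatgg
ERO1LB (chr1:236282168-236282208, reads against the gene): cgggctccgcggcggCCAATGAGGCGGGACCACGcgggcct
The ERSE-II of 3 genes that rose are these:
HERPUD1 (chr16:56932010-56932050, reads with the gene): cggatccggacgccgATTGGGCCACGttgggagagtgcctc
HYOU1 (chr11:119057259-119057299, reads against the gene): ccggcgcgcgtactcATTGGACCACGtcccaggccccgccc
HYOU1 (chr11:119057365-119057405, reads against the gene): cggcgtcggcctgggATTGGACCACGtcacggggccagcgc
SDF2L1 (chr22:21642099-21642139, reads against the gene): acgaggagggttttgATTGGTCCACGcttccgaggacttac

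Genes that hold either element did not move in 1 direction. Of the 11, 6 rose (HSPA5, HSP90B1, PDIA6, HERPUD1, HYOU1 and SDF2L1), XBP1 fell, CALR, CANX and CRELD2 did not pass, and ERO1LB was not tested. Their median log2 fold change was 0.23, against 0.12 for the 24 genes with neither element, of which 12 rose and 4 fell. Of all genes tested, 22.4% were called higher and 33.6% lower, with a median of -0.04. The counts of holders are small. DNAJB9 and ERO1L, among the strongest risers, and P4HB held neither. Outside the 39, a further 18 tested genes held either element, of which 7 rose and 3 fell, with a median of 0.11. They include FICD, the enzyme that adds AMP to HSPA5 (log2 fold change 0.61, called), and SERP1, a translocon-associated protein (0.28, called), both higher, and NUCB1, a Golgi calcium-binding protein, lower (-0.46, called). The UPRE (TGACGTGG), which spliced XBP1 protein binds, was found in 2 of the 35 genes, DNAJC10 and HYOU1. It was held by 0.927% of all genes with a window, and in HYOU1 it shared 5 bases with an ERSE-II. A further element searched, CARE (TGATG, any 1 base and then AA), was found in 2 of the 35 genes, CREB3L2 and HERPUD1. CARE was held by 4.46% of all genes with a window. A match is a stretch of letters and does not show binding. Only exact matches were searched, so near matches to an element stay in lower case in the windows below. HSPA5 and XBP1, which hold the same element and moved apart, are shown with their whole windows, HSPA5 from chr9:125241294-125241593 and XBP1 from chr22:28800520-28800819, both on the reverse strand, with ERSE in capitals.
HSPA5: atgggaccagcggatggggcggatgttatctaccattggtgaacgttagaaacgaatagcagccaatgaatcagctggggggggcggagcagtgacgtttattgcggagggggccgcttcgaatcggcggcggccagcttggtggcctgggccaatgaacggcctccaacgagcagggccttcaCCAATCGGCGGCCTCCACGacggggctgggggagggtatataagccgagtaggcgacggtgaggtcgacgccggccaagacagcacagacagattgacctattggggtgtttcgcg
XBP1: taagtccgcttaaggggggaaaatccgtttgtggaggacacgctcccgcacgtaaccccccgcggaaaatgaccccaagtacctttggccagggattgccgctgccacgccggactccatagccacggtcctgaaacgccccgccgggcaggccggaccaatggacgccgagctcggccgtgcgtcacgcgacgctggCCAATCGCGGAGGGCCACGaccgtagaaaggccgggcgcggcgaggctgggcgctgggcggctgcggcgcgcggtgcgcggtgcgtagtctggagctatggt
The ERSE of HSPA5 begins 66 bases before the start and that of XBP1 52 bases before it.

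Sites in 3′ untranslated regions were also compared, because genes with TGTCCA there were lower on average in these same libraries, a sequence that had been picked from these data and so is no separate evidence. In the GENCODE release 29 annotation (GRCh38), with the longest such region per gene, a 7-base site (CTGTCCA or TGTCCAA) was held by 8 of the 37 genes tested. Of these, P4HB and UGGT1 fell, ATF6, EDEM1, EIF2AK3 and HYOU1 rose, and DNAJC10 and PDIA3 did not pass. A TGTCCA without the seventh base was held by 6 genes, of which 3 rose, SEC61A1 fell and 2 did not pass. Genes with no TGTCCA numbered 23, of which 13 rose and 2 (XBP1 and SEC61B) fell. Over all genes tested, 43.8% of 2394 genes with a 7-base site and 33.4% of 1754 with the 6-base site alone were called lower. Of 6204 genes with none, 30.3% were called lower. Shares in the higher direction were 17.1% for a 7-base site, 22.3% for the 6-base site alone and 25.2% for none. The counts among the 37 genes stand against these shares and are small. The sites of the 2 that fell are shown with flanks and TGTCCA in capitals, the coordinates being those of the 6 capitals:
P4HB (chr17:81843731-81843736, reverse strand): catacatgagtcTGTCCAgagtgcttgcta
UGGT1 (chr2:128190196-128190201, forward strand): cggcggaagctcTGTCCAaggtccacacac
Sites of 2 genes that rose are shown beside them:
EIF2AK3 (chr2:88557666-88557671, reverse strand): ttagaatatgccTGTCCAaaattgcagact
ATF6 (chr1:161960520-161960525, forward strand): caggtgcctcttTGTCCAagctagttaaat
Of the 12 coding transcripts of P4HB, 3 carry the site in this region, as do 2 of 5 for UGGT1, 2 of 3 for EIF2AK3 and 1 of 1 for ATF6. Among the other risers it is 1 of 15 for HYOU1 and 1 of 4 for EDEM1. Which transcripts these cells use was not examined.

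Lists of 148 further genes, none of them among the 39, had 143 tested, of which 41 rose (28.7%, against 22.4% of all genes) and 42 fell (29.4%, against 33.6% of all genes), with a median log2 fold change of 0.01. Under median-ratio scaling the split was 57 higher and 37 lower (all genes 29.2% higher and 29.9% lower). The counts of the single lists that follow stand against the same shares of all genes, 22.4% higher and 33.6% lower, and are small. Output genes of the PERK and ATF4 branch went both ways, with 5 higher and 4 lower of 12. PPP1R15A (GADD34), which restores translation by directing dephosphorylation of eIF2 alpha, rose from 19.1 ± 0.482 to 39.3 ± 1.11 FPKM, and ATF3, a transcription factor of the stress response, from 10.1 ± 1.13 to 23.0 ± 0.826 FPKM. TRIB3, a pseudokinase target of ATF4 and CHOP, fell from 40.5 ± 2.41 to 19.9 ± 0.709 FPKM (log2 fold change -0.99). Partners and processors of the sensors had 0 higher and 5 lower of 10 tested by limma. At an unadjusted p under 0.05 it had 1 higher, and voom on recovered reads called 3 higher. ATF6B, a relative of ATF6, fell (8.51 ± 0.542 to 6.14 ± 0.253 FPKM). NFYC, a subunit of the CCAAT-binding NF-Y, fell from 3.03 ± 0.106 to 2.07 ± 0.0687 FPKM, and CREB3L4, a relative of CREB3L3, from 2.63 ± 0.291 to 1.80 ± 0.108 FPKM.

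Further degradation genes counted 8 higher and 9 lower of 27. VIMP, a selenoprotein of the derlin complex, rose from 10.2 ± 0.927 to 17.1 ± 0.406 FPKM and UBXN8, an ER membrane anchor for VCP, from 5.70 ± 0.199 to 8.49 ± 0.508 FPKM, while NPLOC4, the cofactor of the extracting ATPase VCP, fell from 18.8 ± 0.793 to 9.62 ± 0.227 FPKM. Additional disulfide isomerases had 6 higher and 3 lower of 15, with QSOX1, a sulfhydryl oxidase, at 4.58 and 6.83 FPKM, the selenoprotein SELM at 8.37 and 12.2 FPKM and the membrane-bound isomerase TMX3 at 3.71 and 5.19 FPKM, all 3 called higher. Co-chaperones and prolyl isomerases had 4 higher and 6 lower of 20. FKBP14, a prolyl isomerase of collagen folding, rose from 7.61 ± 0.0721 to 16.1 ± 0.809 FPKM and HSPA13, an ER HSP70-like protein, from 17.4 ± 1.22 to 25.4 ± 1.16 FPKM, whereas FKBP9, another prolyl isomerase, fell from 21.4 ± 0.821 to 16.0 ± 0.235 FPKM.

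N-glycosylation and glycan trimming genes had 6 higher and 6 lower of 24. MLEC (malectin), a lectin for glucosylated glycans, fell from 30.0 ± 0.725 to 12.7 ± 0.299 FPKM (log2 fold change -1.18), RPN2, an oligosaccharyltransferase subunit, from 135 ± 8.86 to 98.4 ± 2.55 FPKM, and the glucosidase subunit GANAB from 56.3 ± 1.81 to 44.5 ± 1.61 FPKM. The translocon, signal recognition particle and signal peptidase had 7 higher and 7 lower of 22. SSR3 of the translocon-associated complex rose from 40.0 ± 1.83 to 53.5 ± 0.608 FPKM and the receptor subunit SRPR from 14.9 ± 1.03 to 19.8 ± 0.566 FPKM, while SRP14, of the recognition particle, fell from 80.9 ± 3.31 to 63.2 ± 1.86 FPKM. COPII coat genes had 5 higher and 2 lower of 13. SEC13, of the outer coat, fell from 21.8 ± 1.39 to 16.0 ± 0.487 FPKM and SEC23B, of the inner coat, from 35.5 ± 2.68 to 28.5 ± 0.411 FPKM, and TFG, which gathers coat components at ER exit sites, rose from 16.7 ± 0.759 to 20.6 ± 0.726 FPKM.

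**Figure D4:**
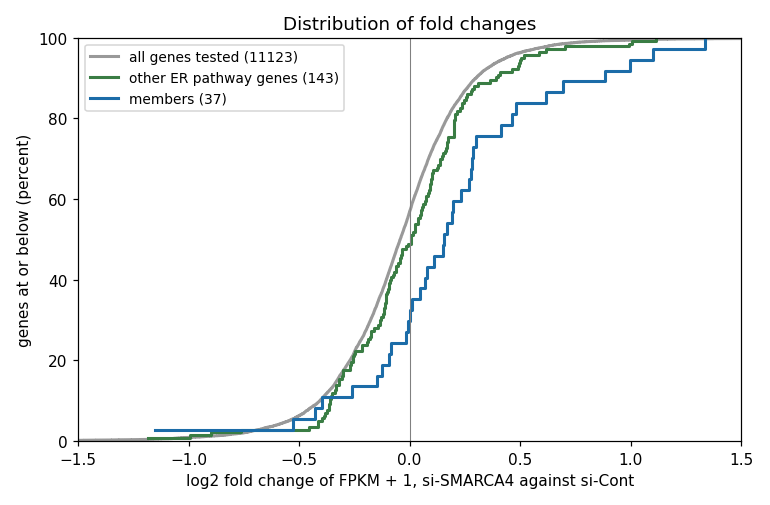
Share of genes at or below each log2 fold change of FPKM + 1 (x axis, si-SMARCA4 against si-Cont; y axis in percent) for all 11123 genes tested (grey), the 143 other ER pathway genes (green) and the 37 genes (blue). The blue curve lies to the right of the others over most of its range, with medians of 0.15, 0.01 for the green and -0.04 for the grey.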

How the data were processed

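The authors deposited an FPKM value for each of 57773 genes in 6 libraries; per the submitters' processing notes the genome build was hg19, while aligner, counting program and strand setting were not given in the sources used here. Groups and replicate numbers came from the titles. Genes with a mean of at least 1 FPKM (11123) were compared on log2(FPKM + 1), a pseudocount of 1, with limma 3.58.1 in R 4.3.3 (moderated statistics with a trend, two-sided), with Benjamini-Hochberg adjustment over all genes tested and a threshold of 0.05. Fold changes on this scale understate those of low genes. Whole reads were recovered from the FPKM steps for 100.0% of 25119 genes with a mean above 0, at a relative tolerance of 1e-10; these ranged from 19084308 to 22719014 over genes. Reads without molecular identifiers speak for counting error only.

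The 39 genes, the lists and the tests were chosen with earlier results of these data known. Every one of the 39 is reported, and of each further ER list the 3 called genes with the smallest p are named. Gene symbols ERO1L, ERO1LB, VIMP, SELM and SRPR are printed as the table has them. Same-numbered libraries deviated together from their group means (r over genes 0.215, 0.181 and 0.162, against at most 0.003068 for other numbers). Deviations cancel within a group, so a high value for same numbers lowers the others, and the check cannot establish pairing. The labels do not state pairing, the main fit was unblocked, and a blocked fit was compared. Other alternatives were pseudocounts, filters, scalings, limma settings, limma voom on recovered reads, a threshold of 0.01 and leaving out each library. Where a 95% interval is printed, it comes from the limma fit. The procedure was tested on simulated data. Sequences came from RefSeq promoters and GENCODE release 29, both on GRCh38, not on the build of the values. In that release 21 of the 39 genes share exon bases with another gene, and only some of these overlaps are described above. Others, on the opposite strand, are 396 bases of DERL1 (with TBC1D31), 381 of DNAJB11 (with TBCCD1) and 344 of SEC61A1 (with RUVBL1). Their part in the values was not tested. Python 3.11.15, numpy 2.4.6, pandas 2.3.3 and matplotlib 3.10.9 were used.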

Additional observations from a re-analysis of the deposited data

How the results depend on the processing

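Counts of the 39 genes past the threshold ranged, over the 20 alternatives, from 16 to 25 higher and from 5 to 9 lower, against 20 and 5. Leaving out each library in turn gave 16 to 21 higher and 5 to 9 lower. Over all genes these runs called 18.2% to 23.7% higher and 27.6% to 40.5% lower. The 9 came without si-Cont replicate 2, where 40.5% of all genes were called lower, against 33.6% with all libraries. In that run CANX, SIL1, PPIB and EDEM2 were also called, and the cause was not tested. For other ER pathway genes (41 higher and 42 lower), leaving out each library gave 33 to 45 higher and 34 to 60 lower, beside the same shares of all genes. Quantile normalization gave 62 higher, while the share of all genes called higher went from 22.4% to 30.1%. Of the 25 called genes, 21 kept direction and side of the threshold in every alternative where they were tested, 16 higher and 5 lower; the others were PDIA6, EDEM3, EIF2AK3 and SEC24D, which kept their direction. The replicate block gave 20 higher and 7 lower, adding CANX and SIL1, and changed no other call among these genes. Over all genes the block gave 24.4% higher and 36.4% lower.

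All 20 changes of direction were in genes that had not passed. The log2 fold change of CRELD2 was -0.0002 with a pseudocount of 5 and ran from -0.0554 to 0.0401 when each library was left out. That of DNAJC10 was 0.0332, 0.0476, 0.0483 and 0.036 under median-ratio, quantile and upper-quartile scaling and voom, and -0.0491 to 0.0035 with a library left out. CREB3L3 had 0.029, 0.0228, 0.0393 and 0.0341 under the same 4, and -0.0437 to 0.0602 with a library left out. Quantile normalization gave 0.096 for PPIB and 0.0656 for CANX. With a library left out, PDIA3 ran from -0.0413 to 0.0477 and CREB3L2 from -0.035 to 0.1865. With 9 to 27 reads, a difference in DERL3 was not detectable at this depth.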
